A study of Mus musculus with 4 samples.

Results

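The genes described here are p62 (Sqstm1) and related selective autophagy receptors, proteins that bring chosen cargo into autophagosomes or work with those that do. They were chosen by name (Sqstm1, Nbr1, Optn, Tax1bp1, Calcoco1 and Wdfy3), and a probe set was taken as a member if the array annotation gave it exactly 1 of these 6 symbols. This gave 7 probe sets of 4 genes among 22626 non-control probe sets of 12393 genes: 1 for Sqstm1, 2 for Nbr1, 3 for Tax1bp1 and 1 for Wdfy3. Optn and Calcoco1 were matched to 0 probe sets and were not analysed here. The samples were 4 tumors grown under the skin of nude (NCR Nu/Nu) mice from iBMK cells, a line of immortalized baby mouse kidney epithelial cells. All 4 carried the ATG5-/- genotype and Bcl-2, the controls included, and none was treated. One group of 2 tumors came from cells with EGFP, a fluorescent tag, and the other 2 from cells with p62-EGFP, the tag joined to p62. The age of the mice, the promoter that drove each transgene, and whether a line was 1 clone are not given in the sources used here. Nude mice lack mature T cells but keep other host cells, so each array read tumor and host RNA together. In such bulk samples fewer cells of a type and less RNA per cell cannot be told apart.

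p62 binds ubiquitin chains on its cargo and links them to the forming autophagosome, and it is itself degraded with the cargo. Nbr1 has a similar layout of domains and can pair with p62; Tax1bp1 is another ubiquitin-binding receptor, and Wdfy3 (Alfy) is a large scaffold that works with p62 on protein aggregates. Atg5 is needed to form autophagosomes, and cells without it are known to accumulate p62 protein. The arrays measured RNA, not protein.

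Signals are MAS5 values on a linear scale, and where a pair of values is given for a group, tumor 1 comes first. The mean signal, with 2% of the probe sets trimmed at each end, was 150.04 on all 4 arrays. Differences are p62-EGFP minus EGFP on the scale of log2(signal + 16), which understates the change of dim probe sets. They were tested with limma over 13576 probe sets, and p-values were adjusted over all of them by the Benjamini-Hochberg method. Epithelial markers were present in all tumors: Krt18 read 730 and 254 in the EGFP pair and 545 and 627 in the p62-EGFP pair, and the summed signal of 8 epithelial markers ran from 1220 in EGFP tumor 2 to 2767 in p62-EGFP tumor 2. Of the 6 epithelial markers tested, 2 were apart (groups not overlapping) and higher in the p62-EGFP tumors and 0 apart and lower. Over all tested genes, 1 probe set each, the shares were 26.4% and 22.0%. The epithelial markers had a median log2 difference of 0.47, with 0 past the limma test. The 2 were Krt19, a keratin (93.6 and 156 in the EGFP pair, 333 and 341 in the p62-EGFP pair), and Epcam, an adhesion molecule (351 and 109 against 361 and 660). Krt8 (log2 difference 0.51), Krt18 (0.42) and Cdh1 (0.35) overlapped, as did Tjp1, which went the other way (-0.14). Cldn7, a tight junction gene too dim to be tested, stood at 0.7 and 0.5 against 12.7 and 23.4. Krt19 and Cldn7 lie on chromosome 11, where 59.1% of tested genes were apart and higher. The part of tumor cell content in the values below was not tested. Host transcripts differed between tumors. The summed signal of 10 macrophage markers was 10311 in EGFP tumor 2 and 1233 to 2303 in the other 3, and that of 8 skeletal muscle markers was 3642 in p62-EGFP tumor 1 and 38.5 to 492 in the others.

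Sqstm1, the gene of p62 itself, had a signal of 976 and 1156 in the EGFP pair and of 1433 and 1688 in the p62-EGFP pair (probe set 1450957_a_at). The groups did not overlap, and the lowest p62-EGFP tumor lay above the highest EGFP tumor. The ratio of the group means was 1.46, and each p62-EGFP tumor exceeded each EGFP tumor by 0.31 to 0.78 on the log2 scale, whereas the tumors of a group differed from each other by 0.24 (EGFP) and 0.23 (p62-EGFP). The log2 difference was 0.54 (SE 0.14, 95% interval 0.19 to 0.90, n = 2 each) and did not pass the limma test after adjustment (adjusted p = 0.235). The sources used here do not say whether this probe set reads the p62-EGFP transcript as well as the gene of the cell. The adjusted p depended on which group lost a tumor, since the remaining pair then sets the spread. Over all tested probe sets the log2 differences between the 2 tumors of a group had an SD of 0.604 (EGFP) and 0.273 (p62-EGFP). The log2 difference of Sqstm1 stayed positive in each fit with 1 tumor left out. It was 0.42 without EGFP tumor 1 (limma adjusted p = 0.0452) and 0.66 without EGFP tumor 2 (limma adjusted p = 0.0155), where only the p62-EGFP pair informs the spread. With p62-EGFP tumor 1 or 2 left out it was 0.66 or 0.43 (limma adjusted p = 0.990 and 0.969).

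For Nbr1 each of its probe sets gave higher signals in the p62-EGFP tumors. The brighter one (1448343_a_at) read 622 and 525 in the EGFP pair and 919 and 958 in the p62-EGFP pair. The dimmer one (1451897_a_at) read 227 and 159 against 320 and 356. In both probe sets the 2 groups were apart, and EGFP tumor 2 was the lowest of the 4 tumors. The ratios of the means were 1.64 and 1.75. The log2 differences were 0.70 (SE 0.14, 95% interval 0.34 to 1.05) and 0.78 (SE 0.21, 95% interval 0.24 to 1.31), and neither passed (limma adjusted p = 0.200 and 0.244). Without EGFP tumor 1 they were 0.82 and 1.01 (limma adjusted p = 0.00281 and 0.00286), again with a spread that comes from p62-EGFP tumors only. Without EGFP tumor 2, the tumor rich in macrophage transcripts, they were 0.58 and 0.54 (limma adjusted p = 0.0275 and 0.0710). With p62-EGFP tumor 1 or 2 left out the brighter probe set gave 0.73 or 0.67 and the dimmer 0.85 or 0.70 (limma adjusted p = 0.990 and 0.969).

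The log2 differences of the 2 Nbr1 probe sets, 0.70 and 0.78, were of the same order as the 0.54 of Sqstm1. The part of the p62-EGFP transcript in the Sqstm1 value was not tested. Taken within each tumor, the log2 distance of the brighter Nbr1 probe set from Sqstm1 differed between groups by 0.16, and the groups overlapped (exact two-sided permutation test, p = 0.667, adjusted p = 0.834 over 5 such comparisons). With 2 tumors against 2 this test cannot go below 0.333, so it does not show that the genes responded alike.

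**Figure D1:**
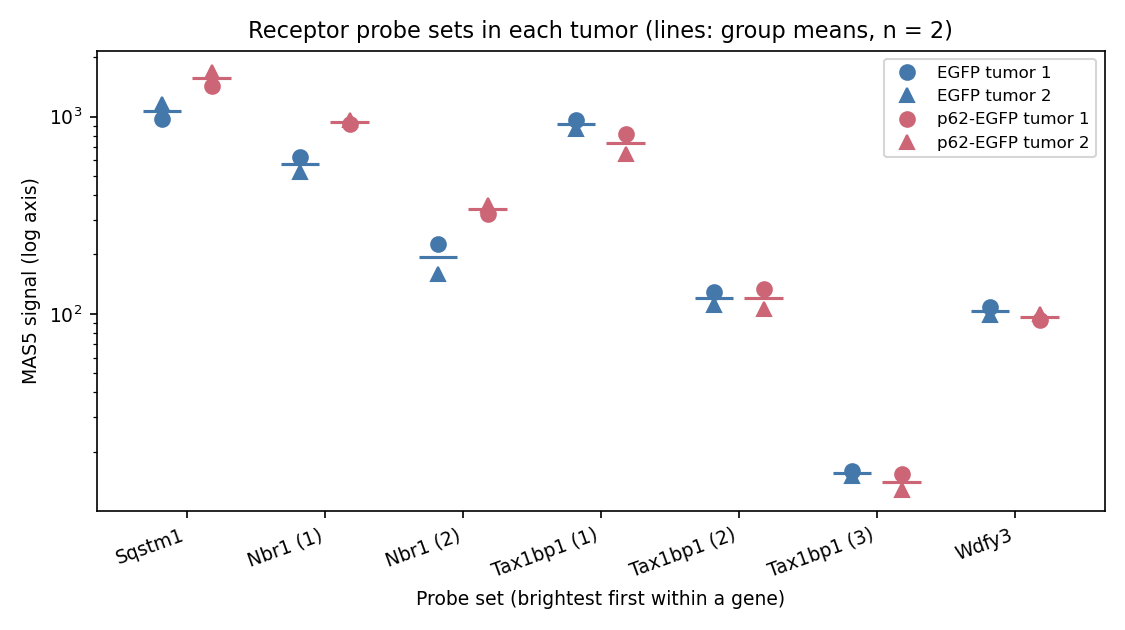
MAS5 signal (log axis) of the 7 receptor probe sets in each tumor, with probe sets of a gene numbered from the brightest; circles and triangles are tumors 1 and 2 of a group and lines the means of 2 tumors. Sqstm1 and both Nbr1 probe sets are higher in both p62-EGFP tumors, the brightest Tax1bp1 probe set is lower in both, and the other Tax1bp1 probe sets and Wdfy3 overlap.

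Tax1bp1, the other ubiquitin-binding receptor measured among the members, did not share this direction. Its brightest probe set (1448399_at) read 963 and 868 in the EGFP pair and 813 and 648 in the p62-EGFP pair. Each p62-EGFP tumor was below each EGFP tumor. The log2 difference, -0.33 (SE 0.16, 95% interval -0.72 to 0.07), did not pass (limma adjusted p = 0.402). Leaving out 1 tumor at a time moved it between -0.49 and -0.17. The second probe set (1420174_s_at) disagreed: it read 129 and 111 against 134 and 106, with tumor 1 of each group above tumor 2, and a log2 difference of -0.01 (95% interval -0.49 to 0.48, limma adjusted p = 0.992) whose sign changed with the array scaling. The third (1420175_at) had means of 15.6 ± 0.64 and 14.1 ± 1.84 (SD, n = 2), was below the filter on low values and was not tested. The average over the probe sets of Tax1bp1 gave -0.13 (limma adjusted p = 0.734). Within each tumor the log2 distance of the brightest Tax1bp1 probe set from Sqstm1 was smaller in both EGFP tumors (-0.02 and -0.41) than in the p62-EGFP tumors (-0.81 and -1.36), a difference of -0.87, with the smallest p the exact permutation test allows (p = 0.333, adjusted p = 0.833).

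Wdfy3 read 108 and 98.7 in the EGFP pair and 92.6 and 99.7 in the p62-EGFP pair (1427456_at). The groups overlapped, since p62-EGFP tumor 2 lay above EGFP tumor 2. Its log2 difference was -0.09 (SE 0.17), and the 95% interval from -0.51 to 0.33 leaves room for a moderate change in either direction (limma adjusted p = 0.827).

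Of the 6 member probe sets tested, 0 passed at an adjusted p of 0.05 with limma, and 3 had an unadjusted p below 0.05. Over all probe sets 0.0589% were called higher and 0.0295% lower, while 8.74% were higher and 5.77% lower at an unadjusted p below 0.05. The groups were apart with p62-EGFP higher in 3 of the 6 (Sqstm1 and the 2 of Nbr1, which share a gene) and lower in 1 (Tax1bp1). Over all probe sets tested, 26.7% were apart with p62-EGFP higher and 22.2% with p62-EGFP lower. The differences of Sqstm1 and of the 2 Nbr1 probe sets stood at percentiles 93.8, 96.9 and 97.9 of all tested probe sets, and those of the brightest Tax1bp1 probe set and Wdfy3 at 16.6 and 37.5.

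**Figure D2:**
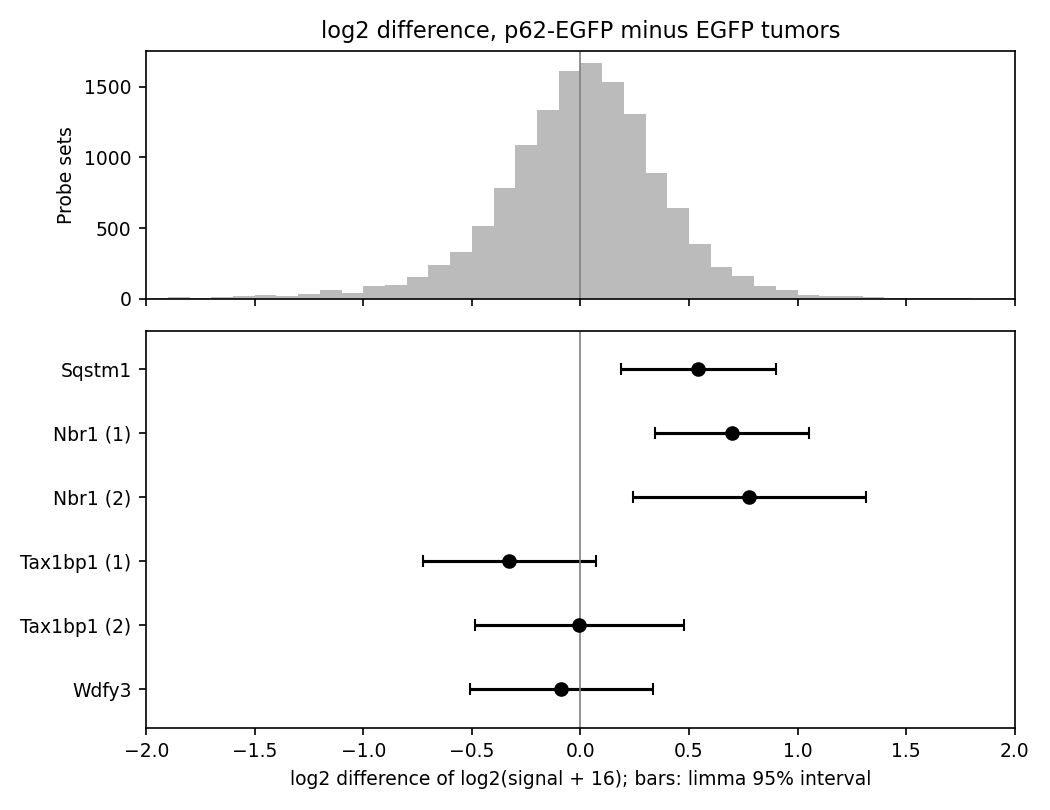
Top, the number of probe sets by log2 difference, p62-EGFP minus EGFP (bins of 0.1; 38 of the 13576 tested lie outside the axis). Bottom, the log2 difference of each tested receptor probe set with its limma 95% interval, not adjusted for the number of tests; those of Sqstm1 and Nbr1 lie above 0, and those of Tax1bp1 and Wdfy3 include it.

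Sqstm1 and Nbr1 both lie on mouse chromosome 11, and that chromosome as a whole had higher signals in the p62-EGFP tumors. Its 697 tested genes, 1 probe set each, had a median log2 difference of 0.30 (quartiles 0.05 and 0.51), the highest of the 20 chromosomes, against 0.01 over all 7847 tested genes. The groups were apart with p62-EGFP higher for 59.1% of chromosome 11 genes and lower for 4.73%, where all genes gave 26.4% and 22.0%. The median deviation of chromosome 11 genes from their own means was -0.13 and -0.21 in the EGFP pair and 0.09 and 0.22 in the p62-EGFP pair. Among the genes of its chromosome Sqstm1 stood at percentile 78.5, and the Nbr1 probe sets stood at 90.2 and 94.3.

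The neighbours of both genes showed the lean of the chromosome, whose median was 0.30 with 59.1% of genes apart and higher, and not a stronger one by their medians. Of the 20 tested genes nearest to Sqstm1 in gene order, 10 on each side (a window set after the data were seen), 16 had a positive difference and 13 were apart and higher, with a median of 0.22, and 6 had a larger difference than Sqstm1. Around Nbr1 the counts were 16 and 13, the median was 0.28, and 1 neighbour exceeded Nbr1. In each window 1 gene was apart and lower. Over all tested genes 51.7% had a positive difference. With the median of each gene's chromosome subtracted, the log2 difference was 0.24 for Sqstm1 and 0.40 and 0.47 for Nbr1 (limma adjusted p = 0.566, 0.409 and 0.481). What sets the level of the chromosome was not tested. Tax1bp1 lies on chromosome 6, whose median was -0.12, and its brightest probe set was at -0.20 after subtraction (limma adjusted p = 0.637). Wdfy3 lies on chromosome 5 (median 0.04).

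**Figure D3:**
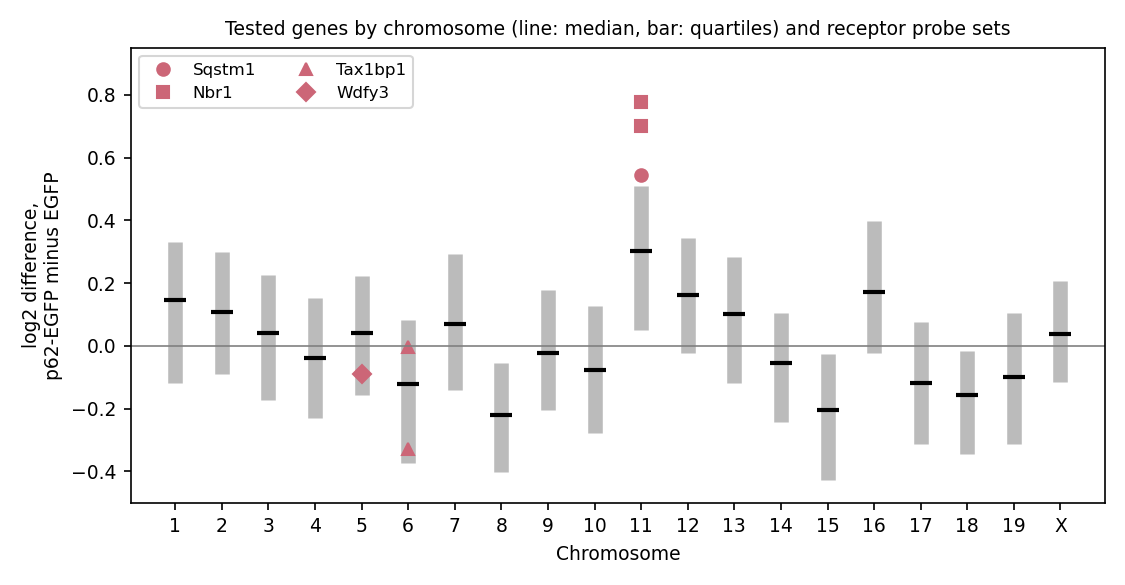
Log2 difference, p62-EGFP minus EGFP, of tested genes by chromosome (black line, median; grey bar, quartiles) with the tested receptor probe sets as points. Chromosome 11 has the highest median, 0.30, and Sqstm1 and both Nbr1 probe sets lie above its upper quartile of 0.51.

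The sequences just before the listed transcript starts of Sqstm1 and Nbr1 are shown because these are the receptors whose signals were higher in both p62-EGFP tumors. They come from RefSeq (GRCm38.p6) and run 5′ to 3′ on the strand of the gene. Sqstm1 has 1 listed start, and its sequence covers the 250 bases before it, chr11:50210821-50211070 on the minus strand. Nbr1 has 2 listed starts. The sequence before the most upstream one was limited to the 151 bases that lie in no other gene, chr11:101551956-101552106 on the plus strand. Capitals mark matches to any of 5 motifs on either strand. The first is the GC box, with the letters GGGCGG, and the second is the box named for its letters, CCAAT. The third is the TATA box, searched here as TATAAA, and the fourth the E-box bound by MiT/TFE factors among others, searched as CACGTG. The last is the core of the antioxidant response element, which NRF2 binds, searched as TGACNNNGC. No pair of matches overlapped.
Sqstm1: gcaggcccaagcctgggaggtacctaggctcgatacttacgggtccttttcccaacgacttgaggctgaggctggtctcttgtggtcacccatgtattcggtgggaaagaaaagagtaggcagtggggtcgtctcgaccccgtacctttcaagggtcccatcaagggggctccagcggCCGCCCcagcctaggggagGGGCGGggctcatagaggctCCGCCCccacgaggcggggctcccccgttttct
Nbr1: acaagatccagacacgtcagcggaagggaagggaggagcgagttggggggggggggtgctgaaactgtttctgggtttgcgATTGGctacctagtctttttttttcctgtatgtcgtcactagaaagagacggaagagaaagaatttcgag

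The Sqstm1 sequence held 3 GC boxes, which began 72, 53 and 33 bases before the start, and 0 matches to the other letters. At least 1 GC box was found in 32.7% of 32851 promoter sequences of that length. The Nbr1 sequence held 1 CCAAT box on the opposite strand, 70 bases before the start, and 0 matches to the other letters. Of promoters cut to the same length, 24.6% held at least 1 CCAAT box on either strand. The E-box was found in 6.02% and the antioxidant core in 10.2% of promoters at the length used for Sqstm1, and in 4.31% and 6.85% at the length used for Nbr1. The TATA box was found in 12.4% and 7.62%. The sequences thus shared 0 of the 5 motifs, which says only that these letters are not in both windows. The Sqstm1 sequence was 63.2% G and C with 14 CpG pairs, and the Nbr1 sequence was 50.3% with 7.

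Genes whose levels over the 4 tumors were most like those of each receptor were ranked by the Euclidean distance between log2 profiles, each centred on its own mean. For Sqstm1 they were Trap1, a mitochondrial chaperone (distance 0.0593), Senp3, a SUMO protease (0.0974), Slirp, a mitochondrial RNA-binding protein (0.0985), Cct3, a chaperonin subunit (0.0990), and Sar1b, a GTPase of transport out of the endoplasmic reticulum (0.0996). Trap1 read 209 and 240 in the EGFP and 318 and 370 in the p62-EGFP tumors, so its 4 tumors stood in the same order as for Sqstm1. Senp3 and Sar1b also lie on chromosome 11. For Nbr1 the closest were Fetub, Ino80e and Nck2 (distances 0.0568 to 0.0696), for Tax1bp1 Hivep2, Chrac1 and Lsm1 (0.0430 to 0.0596), and for Wdfy3 Btg1, Atg101 and Agtrap (0.0137 to 0.0194). With 4 tumors many profiles come close by their shape alone, and these are descriptions.

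Other receptors of selective autophagy, most of which sit in the membrane of mitochondria or the endoplasmic reticulum, gave a median of 0.05 over 14 tested genes of 16 (0.01 for all tested genes), with 7 apart and higher, 2 apart and lower, and 0 past the test. Over all tested genes, 1 probe set each, 26.4% were apart and higher and 22.0% apart and lower, and the counts of every list here and below are to be read against these shares. The median was 0.09 without EGFP tumor 1 and 0.09 without EGFP tumor 2. Bnip3, a mitochondrial receptor that is also a target of hypoxia-inducible factors, read 226 and 172 in the EGFP pair and 342 and 396 in the p62-EGFP pair. This was the largest difference of the list, 0.85 (SE 0.20, limma adjusted p = 0.219). Ccpg1, a receptor for the endoplasmic reticulum, read 143 and 187 against 225 and 218 (0.40, limma adjusted p = 0.389). Tollip, which binds ubiquitin, read 243 and 190 against 260 and 304 (0.36), and Stbd1, a glycogen-binding receptor, 132 and 112 against 151 and 144 (0.24). In these 4 genes both p62-EGFP tumors were above both EGFP tumors, but in 3 of them the size depended on single tumors. Ccpg1 was at 0.23 without EGFP tumor 1, and without EGFP tumor 2 Tollip was at 0.20 and Stbd1 at 0.14.

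Among kinases and scaffolds that act on the receptors, 6 of 8 genes were tested, 0 passed, and the median was -0.12 (0.04 without EGFP tumor 1). Rb1cc1 encodes FIP200, the scaffold of the ULK1 kinase complex that p62 can bind. It read 162 and 167 in the EGFP pair and 319 and 313 in the p62-EGFP pair. The replicates lay close together and the groups far apart, with a log2 difference of 0.88 (SE 0.15, limma adjusted p = 0.184), and its second probe set gave 0.67. Tbk1, the kinase that phosphorylates p62 and optineurin, read 443 and 330 against 265 and 270. It was lower in both probe sets (-0.49 and -0.40, limma adjusted p = 0.340 and 0.375), and EGFP tumor 1 stood highest. Csnk2a2, a catalytic subunit of casein kinase 2, read 417 and 562 against 420 and 342, and its 6 probe sets ran from -0.34 to -0.01. Csnk2a2 lies on chromosome 8, whose median log2 difference of -0.22 was the lowest of all chromosomes. Ulk1 read 296 and 235 against 220 and 263, and its second probe set had the opposite sign (-0.13 and 0.13). Without EGFP tumor 1, Tbk1 was at -0.28 and Ulk1 at 0.03, and without EGFP tumor 2, Csnk2a2 was at -0.13.

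p62 also binds signalling proteins, among them KEAP1, the repressor of the transcription factor NRF2, and the ubiquitin ligase TRAF6. Of 13 such partner genes 8 were tested and 0 passed, with a median of -0.16 (-0.06 without EGFP tumor 2), 5 apart and lower, and 1 apart and higher. Nfe2l2, the gene of NRF2, read 357 and 336 in the EGFP pair and 230 and 244 in the p62-EGFP pair (log2 difference -0.52, SE 0.15, limma adjusted p = 0.257). Keap1 read 143 and 189 against 138 and 134 (-0.25). Casp8, an initiator caspase, read 244 and 369 against 192 and 239 (-0.46). Prkcz, an atypical protein kinase C, was the one apart and higher, with means of 51.5 ± 12.1 and 80.6 ± 26.8 (SD, n = 2; log2 difference 0.50, limma adjusted p = 0.441). Of these, Casp8 and Keap1 were highest in EGFP tumor 2, and without that tumor their differences were -0.18 and -0.07, while that of Nfe2l2 was -0.56. With p62-EGFP tumor 1 left out Prkcz was at 0.79, and with p62-EGFP tumor 2 left out at 0.21.

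Sqstm1 is a known target gene of NRF2, and the other NRF2 targets of the list did not share one direction. Of 14 genes 10 were tested, 0 passed, and the median was -0.11, with 2 apart and higher and 2 apart and lower; without EGFP tumor 2 the median was 0.12. The subunits of glutamate-cysteine ligase, the first enzyme of glutathione synthesis, differed in opposite directions. The catalytic subunit gene Gclc read 306 and 343 in the EGFP pair and 436 and 420 in the p62-EGFP pair (0.38, limma adjusted p = 0.340). The modifier subunit gene Gclm read 227 and 249 against 143 and 160 (-0.60, SE 0.16, limma adjusted p = 0.243). Txn1, thioredoxin, read 2407 and 2706 against 2823 and 2944 (0.17), and Gsr, glutathione reductase, 222 and 172 against 145 and 159 (-0.33). Without EGFP tumor 1 they were at 0.09 and -0.16. Gsr also lies on chromosome 8, with its median of -0.22.

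The MiT/TFE factors are transcription factors that switch on genes of autophagy and the lysosome, Sqstm1 among them. Tfeb read 97.3 and 79.6 in the EGFP pair and 47.4 and 48.8 in the p62-EGFP pair, and Mitf 108 and 160 against 81.8 and 77.8. Both were apart and lower, by log2 differences of -0.70 (SE 0.19) and -0.62 (SE 0.22), and neither passed (limma adjusted p = 0.240 and 0.316); with EGFP tumor 2 left out, Mitf was at -0.37. Host cells also express these factors. Beside them, 4 of 5 mast cell markers were apart and lower, as were 22.0% of all tested genes. The sum of all 5 was 519 to 594 in EGFP and 124 to 189 in p62-EGFP tumors, with no marker at 0. That sum includes Kit, the marker not apart, which read 55.6 and 74.3 against 97.3 and 73.3. The part of mast cells in these differences was not tested. The third factor of the list, Tfe3, and the 4 ubiquitin genes had 0 single-symbol probe sets and were not analysed here.

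**Figure D4:**
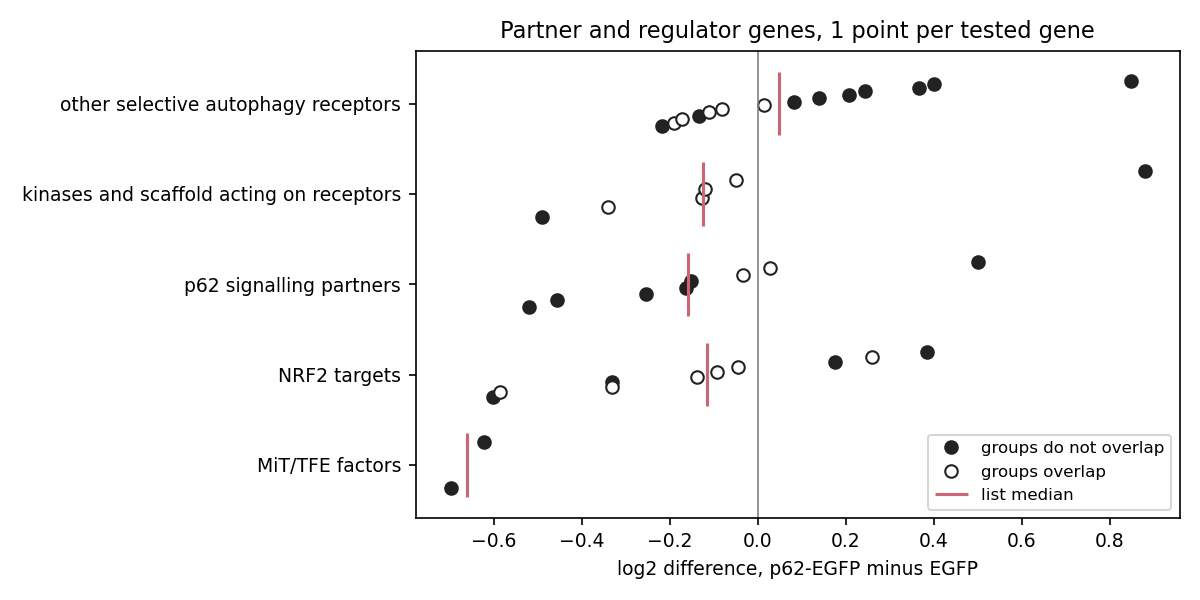
Log2 difference, p62-EGFP minus EGFP, of each tested gene in the 5 partner and regulator lists; filled points are genes whose groups do not overlap, open points those whose groups do, and vertical lines the list medians. The medians lie between -0.16 and 0.05 except for the 2 MiT/TFE factors at -0.66, and Rb1cc1 (0.88) and Bnip3 (0.85) are the points farthest to the right.

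Some host cell markers were high in single tumors, and others differed between the groups. The macrophage sum of 10 markers was 1233 and 10311 in the EGFP pair and 2285 and 2303 in the p62-EGFP pair, with 0 of 10 markers apart between groups. The endothelial sum of 7 markers was 326 and 425 against 156 and 202, and 4 of the 5 tested markers were apart and lower, against 22.0% of all tested genes. Of the 3 pericyte markers tested, Rgs5 (319 and 367 against 138 and 138) and Pdgfrb (65.9 and 154 against 42.9 and 57.6) were apart and lower and Acta2 (181 and 174 against 238 and 311) apart and higher, and the sum of 4 was 585 and 714 against 450 and 529. Of 6 fibroblast markers 1 was apart and higher, Col1a1 on chromosome 11 (71.1 and 207 against 227 and 336), and 0 were apart and lower. Over all tested genes the shares were 26.4% and 22.0%. The other markers overlapped. Dcn (log2 difference -0.33) and Pdgfra (-0.11) leaned lower, and Col1a2 (0.63), Col3a1 (0.42) and Lum (0.275) higher. The fibroblast sum was 950 and 3226 against 2015 and 2773, lowest in EGFP tumor 1. The NK and T cell sum of 6 markers was 2589 in EGFP tumor 2 and 53.0 to 61.1 in the other 3 tumors. The part of these host cells in the values of Sqstm1 and Nbr1 was not tested.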

How the data were processed

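Each of 4 tumors was hybridized as biotin-labelled cRNA to 1 Affymetrix Mouse Genome 430A 2.0 array, per the labels' protocols. Deposited values are signal intensities on a linear scale; MAS5 is named in the submitters' processing notes, and its version and scaling are not given in the sources used here. They were used as deposited, without 64 control probe sets. Genes were named by the supplied array annotation (20380 probe sets with 1 symbol, 691 with several, 1555 with none); 20351 matched the GRCm38.p6 gene table by Entrez identifier, which gave chromosome and gene order. No genome build is stated for the array.

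Probe sets with a mean log2(signal + 16) at or above the 40th percentile (5.61) entered limma 3.58.1 (R 4.3.3, lmFit, then eBayes with a mean-variance trend, two-sided). The code was also run on simulated arrays with the same spread in both groups. The real groups differed in spread, so that run does not show how the test behaves on them. limma stands in for the Genes@Work selection the series' design text names. A gene of a list was represented by its probe set of highest mean. Single values were compared by exact permutation tests. The 2 tumors of a group are not stated to come from separate mice or cultures, so p-values measure the spread between these tumors, which may be technical, and the small number of arrays limits the precision.

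Members and lists were chosen with earlier results of these data known; 1 of the pathway lists is not reported here. Named genes are all members, all tested genes of pathway lists of 5 or fewer, the 4 with the smallest p of longer ones, and the 5 (Sqstm1) or 3 (others) closest profiles, passing over clone names; the cell type markers named were chosen after their values were seen. Alternatives covered array scaling, pseudocount, filter, variance trend, replicate block, chromosome centring, averaging of probe sets and leaving out each tumor. Other steps used Python 3.11.15, numpy 2.4.6, pandas 2.3.3 and matplotlib 3.10.9.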

Additional observations from a re-analysis of the deposited data

How the results depend on the processing

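Sqstm1, both Nbr1 probe sets, the brightest Tax1bp1 probe set and Wdfy3 kept their direction under every alternative run. None of the member probe sets passed the limma test in any setting that kept all 4 tumors. Leaving out 1 tumor, between 0 and 3 of them passed, and the log2 difference ran from 0.42 to 0.66 for Sqstm1, from 0.58 to 0.82 for the brighter and from 0.54 to 1.01 for the dimmer Nbr1 probe set. The calls came without an EGFP tumor, where the lone EGFP tumor is assumed to vary like the p62-EGFP pair; 2842 probe sets then passed with EGFP tumor 1 left out, 1279 with EGFP tumor 2 left out, and 0 with either p62-EGFP tumor left out, against 12 with all tumors. The second Tax1bp1 probe set turned sign with quantile normalization (0.023), median centring (0.021) and chromosome centring (0.12), and ran from -0.15 to 0.14 with 1 tumor left out; the cause was not tested. Over all probe sets the count of 12 became 6 with no filter and 7 with the filter at the 60th percentile, and 1 when probe sets of a gene were averaged. The median over all partner and regulator genes, -0.12, was -0.105 with quantile normalization, -0.090 with median centring, -0.089 with a pseudocount of 64, -0.093 with the filter at the 60th percentile and -0.083 to -0.017 with 1 tumor left out. With the replicate number as a block, 37 probe sets passed and Sqstm1 had an adjusted p of 0.164 (limma); the deviations of same-numbered tumors correlated at 0.08, and the labels do not say that a number pairs tumors.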
